A study of Caenorhabditis elegans with 2 samples.

Results

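The microRNA genes of Caenorhabditis elegans were examined for peaks of the tagged protein F37B4.10. All 261 genes of biotype miRNA on the 6 nuclear chromosomes of the Ensembl WBcel235 annotation were taken, of 46890 annotated nuclear genes. Each gene was given the strongest peak of the authors' ranked list for both replicates whose summit lay in the gene or up to 1000 bp upstream of it. Neighbouring microRNA genes on the same strand, with gaps of at most 1000 bp, were counted as 1 locus, which gave 227 loci. Of these, 18 loci held more than 1 gene (52 genes together), and the largest was the cluster of 7 genes from mir-35 to mir-41. By their place relative to protein-coding genes, 132 loci were independent, 63 lay in an intron on the same strand, 21 lay in an intron on the opposite strand, 8 overlapped an exon and 3 overlapped an exon on the opposite strand.

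The data come from chromatin immunoprecipitation followed by sequencing (ChIP-seq), with 1 group of 2 biological replicates and no other condition. Both replicates were whole worms of strain OP374, harvested as young adults (61 h) after synchronisation by bleaching and starvation of the L1 larvae. The strain carries the insertion wgIs374, a copy of F37B4.10 fused to TY1, EGFP and 3xFLAG tags with an unc-119(+) marker, in the unc-119(tm4063) background, and an antibody against GFP was used for precipitation. Chromatin was sonicated to fragments of 200 to 800 bp. Whole worms mix all tissues, so a peak cannot be assigned to a cell type. No read numbers are given in the sources used here, which leaves the depth unknown. Intervals on shares cover counting error only. The scale of the authors' signal per peak is not stated either, so signals rank peaks within a list, and setting replicate lists side by side assumes 1 scale.

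MicroRNAs are short RNAs cut from hairpins in longer transcripts. Loaded into an Argonaute protein, they repress messenger RNAs that pair with the seed, the bases near the 5′ end of the mature sequence. In C. elegans, lin-4 and the let-7 family time larval development, and the mir-35 and mir-51 families are needed in embryos. The mir-58 family is among the most abundant in the worm. MicroRNA genes have promoters of their own upstream of the hairpin, and some intronic ones are transcribed with their host gene.

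The mature sequences below belong to the loci with the strongest peaks and to the relatives that share their seed, bases 2 to 8, shown in capitals. They are in 5′ to 3′ order, read at the annotated mature coordinates from RefSeq's WBcel235 genome, whose sequence is that of ce11.
mir-51: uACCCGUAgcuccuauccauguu
mir-52: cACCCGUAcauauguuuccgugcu
mir-54: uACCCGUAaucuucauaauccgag
mir-80: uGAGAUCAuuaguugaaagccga
mir-58.1: uGAGAUCGuucaguacggcaau
mir-81: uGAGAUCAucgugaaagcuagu
mir-35: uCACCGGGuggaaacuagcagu
mir-36: uCACCGGGugaaaauucgcaug
mir-42: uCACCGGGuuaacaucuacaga
let-7: uGAGGUAGuagguuguauaguu
mir-241: uGAGGUAGgugcgagaaauga
mir-84: uGAGGUAGuauguaauauuguaga
mir-4930: gGCUGCCUagggggcuggcuag
The first 3 share the seed ACCCGUA, and the mir-35 group shares CACCGGG. In the mir-58 group, bases 2 to 7 are the same, and base 8 is G in mir-58.1 and A in mir-80 and mir-81. The let-7 group shares GAGGUAG, and the seed of mir-4930 was held by no other annotated gene.

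Peaks past the authors' threshold stood at 5 of the 227 loci, namely mir-51, mir-80, the mir-35 to mir-41 cluster, mir-4930 and mir-58.1. The threshold is an IDR (irreproducible discovery rate, low where ranks match between replicates) of at most 0.01, and the list used is the one the authors named conservative. The share was 2.20% of loci (exact 95% interval 0.719 to 5.07%), beside 2.26% of all annotated nuclear genes with such a peak. The latter counts single genes, in windows that grow with gene length. It also takes in 15363 short piRNA genes, of which 0.163% had one. Counted by gene in the same way, 11 of 261 microRNA genes (4.21%, interval 2.12 to 7.42%) had one. Of these 11, 7 are members of the mir-35 to mir-41 cluster, which share 1 peak. The authors' other thresholded joint list added only mir-4814, giving 6 loci, beside 2.48% of all genes in that list.

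Most microRNA loci had only a weak candidate peak. The ranked list, which holds 115634 candidate peaks with no threshold and covers 31.1% of the 6 chromosomes, had a summit in the window of 179 loci (78.9%, exact 95% interval 73.0 to 84.0%), and 71.6% of all genes had one. All genes here include 15363 piRNA genes, with a median length of 21 bp, of which 37% had one. In a window of fixed size, from 1000 bp upstream to 100 bp into the gene, 79.3% of microRNA genes had one, beside 77.1% of the protein-coding ones. The joint signal of the strongest peak ranged from 5.59 to 186 over the 179 loci, with a median of 30.1, and 25% of loci lay below 21.9 and 25% above 40.3. In the fixed window, the median was 31.1 for microRNA genes, 29.1 for protein-coding genes and 45.7 for tRNA genes. MicroRNA genes thus sat close to those of protein-coding genes in windows of the same size.

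Other small RNA genes carried thresholded peaks more often by count. Grouped into loci in the same way, tRNA genes had such a peak at 63 of 542 loci (11.6%, interval 9.05 to 14.6%), snoRNA genes, which guide RNA modification, at 42 of 323 (13.0%, interval 9.53 to 17.2%) and snRNA genes of the spliceosome at 13 of 111 (11.7%, interval 6.39 to 19.2%). None of these intervals overlapped that of microRNA loci. Genes of the annotation's ncRNA class had one at 152 of 6476 loci (2.35%) and lincRNA genes at 5 of 189 (2.65%), both close to microRNA loci. Genes for piRNAs, the short RNAs of the germ line, had one at 15 of 3542 loci (0.423%). Protein-coding genes, grouped into loci with the whole gene in the window, had one at 639 of 13671 loci (4.67%). Counted singly in the fixed window, 286 of 19973 protein-coding genes had one (1.43%).

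**Figure D1:**
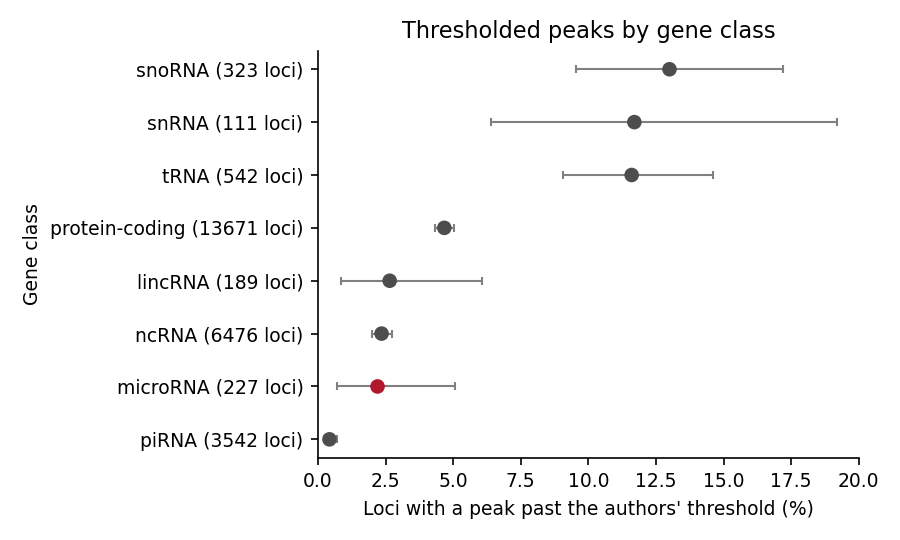
Share of loci with a peak past the authors' threshold (x axis, percent), by gene class with the number of loci in brackets. Points are shares and bars are exact 95% intervals; microRNA loci (red) were at 2.20%, below the shares of snoRNA, snRNA and tRNA loci, all above 11%. Protein-coding loci use the whole gene as the window and so cover more sequence.

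The peak at mir-51, the first member of the mir-51 family, was the strongest at any microRNA gene. Its joint signal was 186, rank 31 of the ranked list, with an IDR of 0.000108. Replicate 1 gave 90.4 and replicate 2 gave 93.5 at the same place, with summits 1 and 0 bp from the joint summit, and both values passed the threshold in the replicate's own list. Thresholded peaks of single replicates are rare, at 0.254% of all genes in replicate 1 and 0.271% in replicate 2. The summit lay 45 bp upstream of the mir-51 hairpin gene (chromosome IV, 11026013 to 11026112, minus strand, independent), and the nearest protein-coding start, that of hrg-5, was 3028 bp away. The peak is printed on the strand of mir-51, chrIV:11026127-11026226 in ce11, because an annotated gene of another class lies inside it.
mir-51 peak: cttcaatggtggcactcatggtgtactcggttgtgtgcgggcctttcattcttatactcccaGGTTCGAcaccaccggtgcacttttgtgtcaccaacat
The whole 89 bp of the noncoding RNA gene F36H1.17 (chromosome IV, 11026131 to 11026219) fell inside this peak, on the strand of mir-51 and ending 18 bp before it. Capitals mark GGTTCGA, at bases 63 to 69 of the peak and starting 7 bp from the summit.

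GGTTCGA was looked up because it is the core of the B box, an element inside tRNA genes and other genes of RNA polymerase III that its factor TFIIIC binds. The letters were chosen after the mir-51 peak had been read. Within 138 bp of the summit, on either strand, they occurred at 9 of the 179 microRNA loci (5.03%), at 2.43% of the 115634 ranked peaks and at 8.54% of the 843 conservative peaks. The longer form GGTTCGANNCC, which contains the shorter one, occurred at mir-51, mir-4814 and mir-8207 among the microRNA loci, and at 0.712% of ranked peaks. It stood in 42 of the 58 conservative peaks within 200 bp of a tRNA gene (72.4%) and in 9 of the other 785 (1.15%). A tRNA gene, K01A6.t1, lay within 200 bp of the mir-8207 summit (signal 28.4). No annotated tRNA, snRNA or snoRNA gene lay within 200 bp of the summit at mir-51 or mir-4814. The other 4 thresholded microRNA peaks held neither form.

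At mir-80, a member of the mir-58 family, the joint signal was 89.9 (rank 218, IDR 0.00119). Replicate 1 gave 44.7 and replicate 2 gave 44.3, nearly the same value, although neither passed the threshold in its own list (IDR 0.113 and 0.174). The summit lay 56 bp upstream of the gene (chromosome III, 8865270 to 8865367, minus strand, independent). The peak ran into the hairpin, and 45 bases of annotated mature sequence lay inside it. It is printed on the strand of mir-80, chrIII:8865285-8865560 in ce11, with those bases in capitals.
mir-80 peak: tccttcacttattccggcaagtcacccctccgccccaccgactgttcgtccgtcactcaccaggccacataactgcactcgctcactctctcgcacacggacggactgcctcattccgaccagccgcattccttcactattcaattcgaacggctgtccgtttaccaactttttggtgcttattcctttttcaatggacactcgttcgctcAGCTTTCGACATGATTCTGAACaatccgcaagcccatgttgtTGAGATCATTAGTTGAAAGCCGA
The final stretch of capitals in the peak is the start-to-end mature sequence of mir-80 given above, as DNA. The noncoding RNA gene K01F9.6, on the other strand, covered 97 bp of the 98 bp mir-80 gene.

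At mir-58.1, of the same family, the joint signal was 74.3 (rank 569, IDR 0.00666). Replicate 1 gave 28.3 and replicate 2 gave 45.7, and neither passed in its own list (IDR 0.325 and 0.0655). The gene (chromosome IV, 3233254 to 3233350, plus strand) lies in an intron of phkb-1 on the same strand, and the summit lay 135 bp upstream, also in an intron of phkb-1 and 3732 bp from the nearest protein-coding start. The noncoding RNA gene Y67D8A.6, also on the plus strand, overlapped the peak over 95 bp and mir-58.1 over 50 bp. The peak is printed for its place just before the hairpin, chrIV:3232981-3233256 in ce11, plus strand.
mir-58.1 peak: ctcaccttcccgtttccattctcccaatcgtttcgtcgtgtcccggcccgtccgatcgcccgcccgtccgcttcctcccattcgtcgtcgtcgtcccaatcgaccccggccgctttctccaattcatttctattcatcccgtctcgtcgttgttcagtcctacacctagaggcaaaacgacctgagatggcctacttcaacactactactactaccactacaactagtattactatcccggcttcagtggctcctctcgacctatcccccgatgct

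The mir-35 to mir-41 cluster had 1 peak ahead of its first gene. The joint signal was 86.4 (rank 259, IDR 0.00399), and the summit lay 262 bp upstream of mir-35 (chromosome II, 11537608 to 11537704, plus strand). Replicate 1 gave 54.6 and passed the threshold in its own list, while replicate 2 gave 32.8 and did not (IDR 0.428). Summits of both replicates fell within 1 bp of the joint one, so the position was shared even though the height was not. The cluster lies in an intron of Y62F5A.9, on the opposite strand, and its peak had a GC content of 55.8%. It is printed as the shared upstream region of all 7 genes, chrII:11537208-11537483 in ce11, plus strand.
mir-35 to mir-41 peak: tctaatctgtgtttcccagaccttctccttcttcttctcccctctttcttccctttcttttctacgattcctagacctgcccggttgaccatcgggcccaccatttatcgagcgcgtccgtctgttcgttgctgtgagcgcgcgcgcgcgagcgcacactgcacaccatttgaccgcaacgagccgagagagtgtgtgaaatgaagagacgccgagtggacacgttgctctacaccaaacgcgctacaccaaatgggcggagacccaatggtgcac

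The thresholded peak at mir-4930 lay in repeated sequence. The joint signal was 81.9 (rank 337, IDR 0.00155), with 35.3 in replicate 1 and 52.1 in replicate 2, and only the latter passed in its own list. The gene (chromosome IV, 2398652 to 2398761, plus strand) lies in an intron of Y38F2AR.10 on the opposite strand, and the summit was 203 bp upstream. The peak, chrIV:2398311-2398586 in ce11, plus strand, is printed to show its repeats, with each copy of CTAGGG in capitals.
mir-4930 peak: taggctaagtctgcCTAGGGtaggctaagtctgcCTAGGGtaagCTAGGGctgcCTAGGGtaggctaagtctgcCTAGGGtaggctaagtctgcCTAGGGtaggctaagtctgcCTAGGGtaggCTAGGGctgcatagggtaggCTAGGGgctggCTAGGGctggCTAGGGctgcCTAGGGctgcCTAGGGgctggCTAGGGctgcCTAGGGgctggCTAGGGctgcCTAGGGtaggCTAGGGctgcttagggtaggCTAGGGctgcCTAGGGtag
CTAGGG occurred 20 times in it, whereas the most frequent 6-base word of a microRNA peak had a median of 3 copies. Soft-masked bases, those the RefSeq genome marks as repeats, made up 50.0% of this peak and between 0 and 8.33% of the other 4. A run of 13 bases of the 22-base mature sequence of mir-4930 occurs in the peak as well. How many reads of such repeats could be placed uniquely is not given in the sources used here, and the part of this in the signal was not tested.

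Just outside the threshold, mir-4814 had a joint signal of 75.2, above that of mir-58.1, but an IDR of 0.0117. The list is cut by IDR and not by signal. Replicate 1 gave 25.7 and replicate 2 gave 43.7 there, and the summit lay 528 bp upstream, in an exon of the host gene W06F12.2. After it, joint signals fell to 62.5 at mir-4924, 61.6 at mir-86 with mir-8211, 59.0 at mir-353, 58.7 at mir-250 with mir-61 and 58.2 at mir-77. Further down, mir-54 to mir-56 reached 57.3 and mir-1833 56.5. The remaining 7 of the 20 highest lay between 49.2 (mir-1829.1) and 54.1 (mir-241), and were mir-265, mir-4936, mir-71, mir-360 and mir-247 with mir-797 besides these. The snoRNA gene T21B4.20 lay within 200 bp of the mir-77 summit. Of the 20 highest loci, 19 had a peak of both replicates at the same place, the exception being mir-241 with none in replicate 2.

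**Figure D2:**
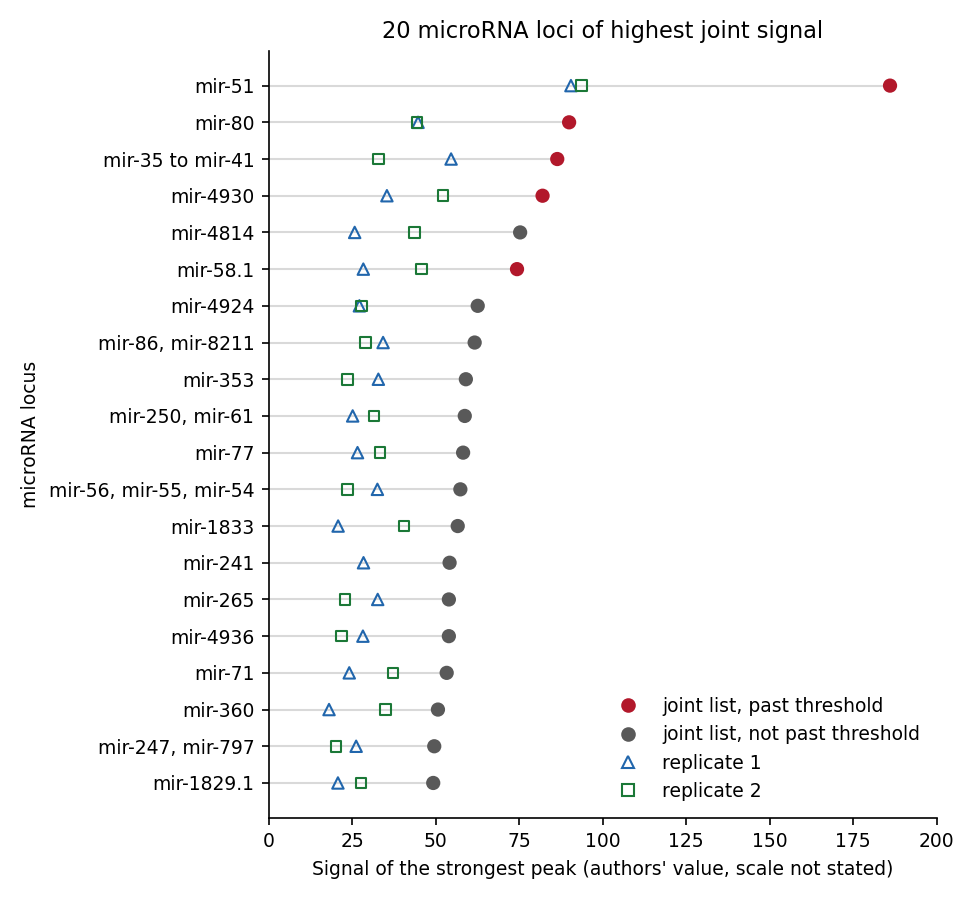
The 20 microRNA loci of highest joint signal (y axis), with the signal of the strongest peak (x axis, authors' value) in the joint list as filled points, red where it passed the threshold. Triangles are replicate 1 and squares replicate 2 at the same peak; mir-51 stands apart at 186, the next locus at 89.9, and the 2 replicates lie near each other at mir-51 and mir-80 but not at the mir-35 to mir-41 cluster.

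Below the threshold, the replicates did not rank the microRNA loci alike. The strongest joint peak overlapped a ranked peak of both replicates at 77 of 179 loci (43.0%, exact 95% interval 35.7 to 50.6%), of replicate 1 alone at 39, of replicate 2 alone at 21 and of neither at 42. The corresponding share was 32.7% for the strongest peaks of protein-coding genes. Taken from each replicate's own ranked list, 132 loci had a peak in replicate 1, beside 55.7% of all genes, and 119 in replicate 2, beside 59.4%. Over the 77 loci with both values, Pearson's r was 0.64 and Spearman's rho 0.21, as a description of loci in the same 2 libraries. Without the 5 thresholded loci, r was 0.07 and rho 0.05 (n = 72), where rho was 0.15 for protein-coding genes treated the same way (n = 4409). Choosing the strongest joint peak of each locus enters both values. The thresholded loci were called by matching ranks between replicates, so leaving them out by itself lowers a correlation. Over all ranked peaks with both values, not only the strongest of a gene, r was 0.46 and rho 0.20 without the conservative ones (n = 31526). Values of single loci below the threshold are therefore given as a description.

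**Figure D3:**
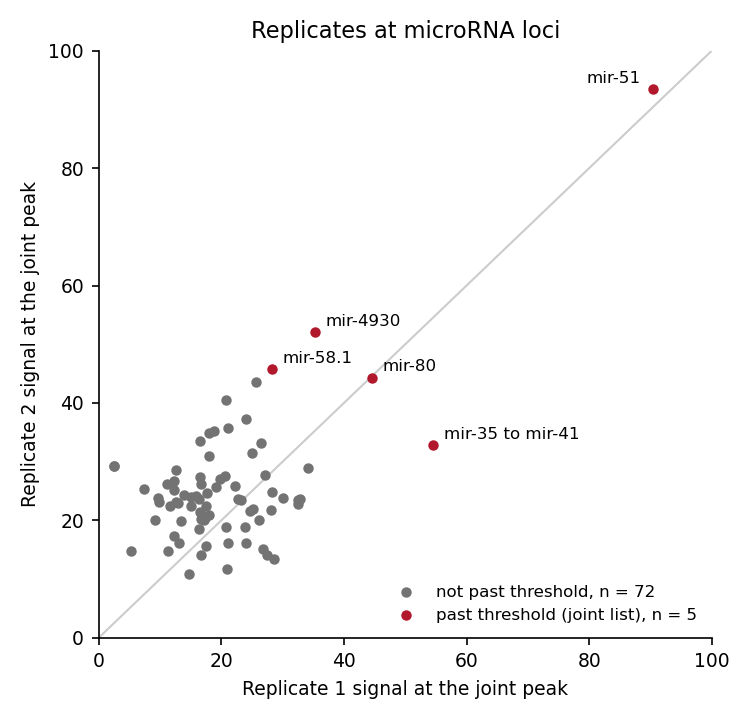
Signal of replicate 2 (y axis) against replicate 1 (x axis) at the strongest joint peak of the 77 microRNA loci with both, authors' values; the line marks equal values. The 5 thresholded loci (red) reach up to 90.4 and 93.5 at mir-51, and the other 72 (grey) form a cloud without a visible slope.

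Members of the mir-51 family differed widely. Besides mir-51, the cluster of mir-54, mir-55 and mir-56 on chromosome X shared 1 peak with a joint signal of 57.3 (IDR 0.0462), at 32.5 in replicate 1 and 23.4 in replicate 2. The peak near mir-53 reached 17.4 and had no peak of either replicate. No joint peak lay in the window of mir-52, where replicate lists held weak peaks of 14.3 and 23.6. Only 1 of the 4 loci of this family thus had a thresholded peak, with the same seed in all 6 genes.

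The mir-58 family, taken as the 7 genes sharing bases 2 to 7, was defined in this wider way after the values were seen, because mir-58.1 shares bases 2 to 8 with no other gene. Its 6 loci ran from 89.9 at mir-80 and 74.3 at mir-58.1 through 37.6 at mir-2209.1 and 34.1 at mir-81 to 14.5 at mir-58.2 with Y73B6A.17 and 8.56 at mir-82. Both thresholded members are those printed above. At mir-81, replicate 1 gave 12.3 and replicate 2 gave 26.7.

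The other mir-35 family gene, mir-42, which forms a locus with mir-43 and mir-44 elsewhere on chromosome II, had a joint signal of 16.7, with 15.1 in replicate 1 and no peak in replicate 2. The strongest peak of that locus, 28.4, lay at mir-44, which has another seed. The 7 clustered genes had 86.4 from their shared peak. Distances from its summit grew from 262 bp at mir-35 to 962 bp at mir-41, which was thus near the 1000 bp limit. The gene mir-54 illustrates the other side of that limit, with a further peak of 52.8 at 1004 bp upstream that lies outside the window.

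No locus of the let-7 family passed the threshold. Joint signals were 54.1 at mir-241, 47.1 at let-7, 43.4 at mir-84, 25.4 at mir-795 and 21.0 at mir-48. The wider family adds mir-793 at 42.1 and mir-794 at 24.2. At let-7 itself, which triggers the larval-to-adult switch, replicate 1 gave 26.7 and replicate 2 had no peak at that place. The annotated let-7 gene spans 1732 bp, and the strongest summit lay 1330 bp from the mature sequences. Measured from these instead, the strongest peak within 1000 bp upstream had a signal of 46.6 with its summit 483 bp away. At mir-84 replicate 1 gave 26.8 and replicate 2 gave 15.1, the reverse of the order at mir-58.1 and mir-81.

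**Figure D4:**
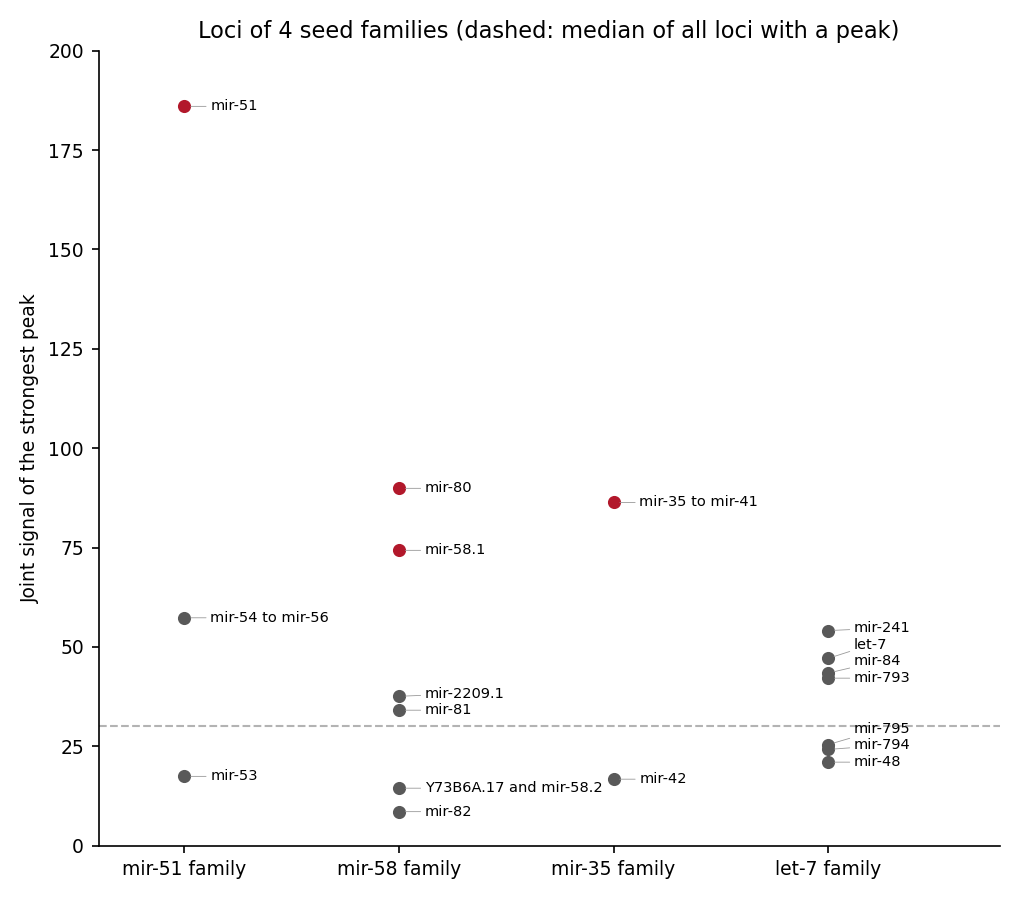
Joint signal of the strongest peak (y axis, authors' value) for each locus of 4 seed families (x axis; genes sharing bases 2 to 7), red where it passed the threshold; the dashed line is the median of all 179 loci, 30.1. Each of 3 families has members far above and members below the median, and the let-7 family lies between 21.0 and 54.1 with none past the threshold.

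Together, the 4 families defined by bases 2 to 8 held 3 of the 5 thresholded loci in 12 loci, and the other 215 loci held 2. Median joint signals were 47.1 and 29.6. With bases 2 to 7, the families held 4 of the 5 in 19 loci, with a median of 39.9, and the other 208 loci held 1. These families were picked with earlier results of the same data known, so these counts are no independent support for a difference.

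Other microRNAs with known roles had modest values. The larval timing microRNA lin-4 had a joint signal of 47.6 (IDR 0.0854), with 18.0 in replicate 1 and 30.9 in replicate 2. The authors' other joint ranked list held no summit in the lin-4 window. mir-71, linked to lifespan, had 53.2 (24.1 and 37.2), and mir-34, linked to stress and ageing, 46.6 (21.0 and 35.7). The neuronal mir-124 had 42.8 (28.2 and 24.9). At lsy-6, which sets the asymmetry of a pair of taste neurons, the signal was 21.1, and at mir-237, a relative of lin-4, it was 14.3, neither with a peak of a single replicate. The muscle microRNA mir-1 had no ranked peak in its window in the joint list or in either replicate. In all, 48 loci had no joint peak, among them mir-1, mir-52, mir-62, mir-83, mir-228 and the pair mir-357 and mir-358.

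Independent and intronic loci overlapped broadly in signal. Independent loci had a ranked peak at 97 of 132 (73.5%, exact 95% interval 65.1 to 80.8%) with a median joint signal of 29.4. Loci in introns on the same strand had one at 56 of 63 (88.9%, interval 78.4 to 95.4%) with a median of 34.4, and their lower and upper quartiles were 25.1 and 45.8, against 21.0 and 39.0 for independent loci. Loci in introns on the opposite strand had one at 19 of 21 with a median of 26.7. Thresholded peaks stood at 2 of 132 independent loci (1.52%, interval 0.184 to 5.37%) and 1 of 63 in introns on the same strand (1.59%, interval 0.0402 to 8.53%). In introns on the opposite strand they stood at 2 of 21 (9.52%, interval 1.17 to 30.4%). Each interval took in the 2.20% of all microRNA loci and the 2.26% of all annotated genes. With so few thresholded loci these intervals are wide, so the counts cannot decide whether shares differ by position. The peaks of intronic loci also had a higher median GC content, 42.4% against 38.4% for independent loci, and its part in the difference was not tested.

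All 5 thresholded summits lay outside the gene, between 45 and 262 bp upstream, and outside every promoter of a protein-coding gene (1000 bp upstream to 200 bp downstream of a start). Over the 179 loci, the strongest summit lay in the gene at 18, 1 to 250 bp upstream at 63, 251 to 500 bp at 39, 501 to 750 bp at 24 and 751 to 1000 bp at 35. Median joint signals in these bins were 27.3, 33.0, 34.8, 27.8 and 27.2. In 44 of the 179 (24.6%), the summit fell in a promoter of a protein-coding gene, so the peak cannot be assigned to 1 of the genes.

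**Figure D5:**
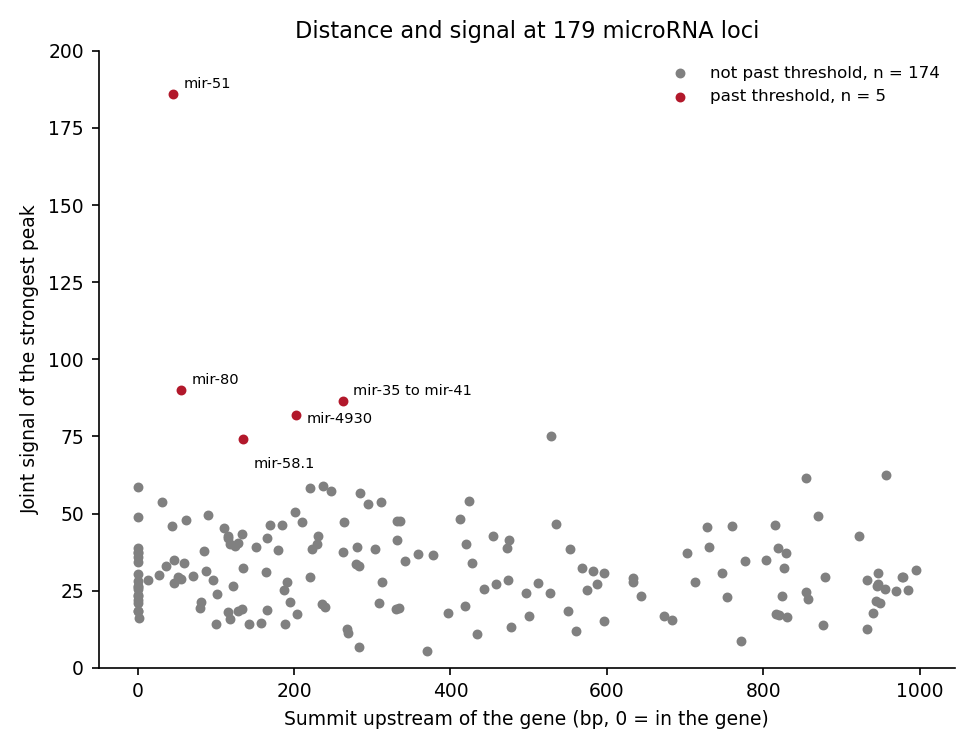
Joint signal of the strongest peak (y axis, authors' value) against the distance of its summit upstream of the gene (x axis, bp; 0 for a summit in the gene) at 179 microRNA loci. The 5 thresholded loci (red) lie within 262 bp, and the other 174 (grey) spread over the whole 1000 bp at signals up to 75.2.

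Annotated noncoding RNA genes stood near 4 of the 5 thresholded summits, all but mir-4930. Only the gene at mir-51 held the summit. Those at mir-80, mir-58.1 and mir-35 overlapped the microRNA gene itself, over 97, 50 and 22 bp. The last of these, Y62F5A.16, lay outside the peak. An ncRNA gene, a class of 7764 genes in the annotation with a median length of 140 bp, lay within 200 bp of the strongest summit at 25 of 179 loci. Those 25 had a median joint signal of 41.5 and 4 thresholded peaks, and the other 154 had 28.8 and 1. In the whole ranked list 4.26% of summits lay so close to one, and in the conservative list 14.8%. Peaks of the 25 also had a higher median GC content, 44.9% against 38.8%.

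GC content moved with signal at microRNA loci. Over the 179 loci, Pearson's r between joint signal and the GC content of the peak was 0.46 and Spearman's rho 0.46, given as a description of peaks in the same libraries. The 5 thresholded peaks had 51.0 to 61.6% GC, where the median was 39.9% over all microRNA loci. In the whole list the median was 38.0%, and 46.7% in the conservative list. The part of GC content in the signal was not tested.

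By chromosome, thresholded loci numbered 3 of 47 on IV, 1 of 41 on II and 1 of 23 on III. Chromosome X, with 58 loci the richest in microRNAs, had none (upper exact limit 6.16%). Its median joint signal was 34.2, beside 30.1 over all loci. None of the 33 loci on I and 25 on V passed, with medians of 27.3 and 29.9. On every chromosome the exact 95% interval took in the 2.20% of all microRNA loci. With so few thresholded loci these intervals are wide, so the counts cannot decide whether chromosomes differ. Shares of all genes by chromosome are not given here.

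Of 32 genes listed as making, using or being controlled by microRNAs, 4 had a thresholded peak in a promoter. Whether each gene listed as a target is controlled by a microRNA was not tested. The list of 33 symbols was chosen with earlier results of these data known, and 32 matched the annotation. The share compares with 1.72% of 19973 protein-coding genes, and the median of the strongest promoter peak was 41.2, against 31.2 for all protein-coding genes with one. nhl-2, a TRIM-NHL cofactor of microRNA silencing, had a joint signal of 125 (IDR 0.000259), with 62.7 in replicate 1 and 67.4 in replicate 2. xrn-2, an exonuclease that degrades mature microRNAs, had 92.2, with 50.9 and 36.3. ain-1, a GW182-type partner of Argonaute, had 65.2, with 29.4 and 38.7. The heterochronic gene lin-46, which acts downstream of lin-28, had 81.6, with 24.7 in replicate 1 and 55.9 in replicate 2, the widest gap of the 4.

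Both replicates thus held a peak at all 4 promoters, with the nearest values at nhl-2. In the authors' other joint list nhl-2, xrn-2 and lin-46 passed and ain-1 did not. With a promoter of 500 bp upstream, only xrn-2 remained. The scavenger decapping enzyme gene dcs-1, which aids microRNA decay, passed only in the other joint list (76.6, IDR 0.0131). Peaks at the core processing genes were weaker, with joint signals of 50.6 at drsh-1, 31.3 at dcr-1 and 19.8 at pash-1. Argonaute genes alg-1 and alg-2 had 39.6 and 40.7. Of the 12 genes listed as targets, only lin-46 passed the threshold, with the highest signal of them. Its control by a microRNA is not shown by these data. Among the others, the strongest promoter peak had a joint signal of 49.8 at lin-14, 45.4 at lin-41 and 42.6 at hbl-1. The gene nhl-1, also listed as a target, had no ranked promoter peak. With the whole gene plus 1000 bp upstream as the window, as for the microRNA genes, lin-14 and the myosin gene unc-54 also held a thresholded peak, which made 6 of 32, against 3.43% of all protein-coding genes in that window.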

How the data were processed

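The members and gene lists were chosen with earlier results of these data known. The authors deposited ranked and thresholded peak lists without headers. Per the README deposited with each sample, they refer to ce11 and derive from filtered alignments and a control library, and for thresholded lists from 1 more file that is not described. Aligner and peak caller were not given in the sources used here, and alignments and the control were not analysed here. The signal column is the authors' value per peak, the IDR is deposited as −log10 values (turned back into a rate here), and the summit is the authors' offset in bp from the peak's start. The joint ranked lists also hold 16 columns on single inputs with no sample name, all left out. Of 905 ranked peaks at an IDR of at most 0.01, 62 were not in the conservative list, none of them at a microRNA gene.

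Genes come from Ensembl release 115, symbols from RefSeq, for all 261 genes. The text names the 20 loci of highest signal, loci with a thresholded peak in any list, 11 well-known microRNAs, 4 seed families, loci at the limits and pathway genes with a thresholded peak. Other genes were named after their values were seen. Shares have exact (Clopper-Pearson) 95% intervals, and no test was made, because there is 1 group. Replicate peaks were matched by any overlap. Alternatives were other windows, loci, lists, thresholds and each replicate alone. Python 3.11.15 was used, with pandas 2.3.3 and numpy 2.4.6 for the tables, scipy 1.17.1 for intervals and matplotlib 3.10.9 for figures.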

Additional observations from a re-analysis of the deposited data

How the results depend on the processing

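No paired analysis was possible because there is 1 group. The count of 5 thresholded loci stayed within 1.5 times under windows of 500 bp (5) and 2000 bp upstream (7, adding mir-71 and mir-2221), loci joined over 10000 bp or by a shared peak (5 each) and the other joint list (6). It was 3 with 200 bp on each side (mir-51, mir-80 and mir-58.1), 11 with every gene counted by itself, 1 at an IDR of at most 0.001 (mir-51), and from 2 to 2 with either replicate left out. Only mir-51 was in both of these, with mir-4930 without replicate 1 and the mir-35 to mir-41 cluster without replicate 2. The thresholded list of replicate 1 holds 81 peaks and that of replicate 2 holds 99, beside 843 in the conservative joint list. In each, 2 loci are 0.881% of microRNA loci (interval 0.107 to 3.15%). Of all annotated genes, counted singly, 0.254% had such a peak in replicate 1 and 0.271% in replicate 2. Loci with a ranked peak, 179, numbered 119 to 132 with 1 replicate left out. The median signal of 30.1 was 34.3 with 2000 bp upstream. With 1 replicate left out, the median ran from 17.8 to 21.5, that of independent loci from 16.8 to 20.1, that of intronic loci from 19.1 to 22.6, and that of family genes, 57.3 with both, from 32.5 to 32.8. Over all peaks of the ranked lists, the median signal was 23.6 in the joint list, 16.01 in replicate 1 and 18.9 in replicate 2. Lower medians in the lists of single replicates were thus not limited to microRNA loci. Families by bases 2 to 7, a choice made after seeing the data, gave 54.1. Thresholded pathway genes numbered 4, or 1 with a promoter of 500 bp upstream, 6 with the gene body plus 1000 bp upstream and 4 in the other joint list. The cause of these shifts was not tested. Unknown depth limits all statements on loci without a peak.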
